A study of Mus musculus with 9 samples.

Results

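Among the genes for structural proteins of the stratum corneum is a group of 9, *Flg*, *Flg2*, *Hrnr*, *Rptn*, *Crnn*, *Ivl*, *Lor*, *Lelp1* and *Kprp*, which were chosen by name as the filaggrin-like and cornified envelope structural genes. Of these, 8 had a row in the table of 17943 genes, and *Flg* was not analysed here. All 8 passed the filter of at least 10 counts summed over the mice, *Lelp1* with exactly 10. Total RNA from whole skin was sequenced in 5 control and 4 *Supt6*-KO mice, 10 days after the last of the injections. The *Supt6*-KO mice carried K14-CreERT and Supt6 fl/fl alleles and received tamoxifen, while the control mice carried Supt6 fl/fl alleles without the Cre transgene and received corn oil, so that both groups share the floxed alleles and the effects of Cre, tamoxifen and *Supt6* loss cannot be told apart. The K14 promoter directs Cre to basal keratinocytes and other K14-positive epithelium. Suprabasal keratinocytes that arise from such cells inherit the deletion, while skin cells of other origin keep the gene. The sample labels name ear tissue, call the control mice wild type and speak of a knockdown, whereas the study's text names dorsal skin. Depth was even, with 29627334 to 30967109 estimated counts per mouse.

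As keratinocytes leave the basal layer and die, they replace the plasma membrane with the cornified envelope, a shell of proteins that transglutaminases link to each other. Involucrin is laid down early as a scaffold, loricrin is the main reinforcing protein, and small proline-rich and late cornified envelope proteins are built in beside it. The proteins of the filaggrin family begin with a calcium-binding S100 domain followed by long repeats. Filaggrin itself is cut by proteases into units that bundle keratin filaments and is broken down to amino acids that hold water. The genes lie together in the epidermal differentiation complex of mouse chromosome 3, and their positions are given from RefSeq (GRCm38.p6), with exon counts of the GENCODE transcript.

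*Supt6*, the transcription elongation factor gene that was targeted, was at 74.5, 56.6, 63.6, 91.1 and 96.7 CPM (counts-per-million values after TMM scaling, which sets libraries level on the bulk of their genes) in control mice 1 to 5 and at 28.6, 24.1, 21.9 and 28.4 CPM in *Supt6*-KO mice 1 to 4. All *Supt6*-KO mice lay below all control mice, at 33.7% of the control mean in skin that also holds cells without Cre (log2 fold change -1.57, SE 0.18, edgeR adjusted p = 1.3e-05). Each adjusted p of a single gene is from edgeR's quasi-likelihood test, adjusted by Benjamini-Hochberg across the 16426 genes tested. The counts are per gene and do not resolve the floxed exons. *Supt6*-KO mouse 4 stood apart from its group, with a Pearson correlation of log2 CPM of 0.963 to 0.973 with the other *Supt6*-KO mice, which reached 0.990 to 0.995 among themselves. It also had the highest level of the basal keratin *Krt14* (9614 CPM against 3114 to 4730 CPM in the other *Supt6*-KO mice) and the lowest of the suprabasal keratin *Krt10* (7775 CPM against 18223 to 19847 CPM). Both keratins were abundant in every mouse, as in skin that holds epidermis, and neither passed the test between the groups (edgeR log2 fold change of *Krt14* 0.66, adjusted p = 0.063, and of *Krt10* 0.19, adjusted p = 0.56). Without *Supt6*-KO mouse 4 *Krt14* was at 0.21 (adjusted p = 0.268) and *Krt10* passed at 0.42 (adjusted p = 0.0495). *Krt14* did pass without *Supt6*-KO mouse 2 (0.84, edgeR adjusted p = 0.0212) and with all mice in DESeq2 (0.72, DESeq2 adjusted p = 0.0152). Control mouse 5 was the least like its group, with correlations of 0.973 to 0.988. Calls of the genes described that change without *Supt6*-KO mouse 4 are given both ways.

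Among the 8 genes, 3 were higher in *Supt6*-KO skin at adjusted p under 0.05 and at least 2-fold (*Rptn*, *Hrnr* and *Ivl*) and 1 was lower (*Lor*). The same rule called 20.9% of all 16426 genes tested higher and 24.9% lower, so that the number of calls among 8 genes is not itself a result about them. Counts of called genes in the lists below stand beside these same shares. At adjusted p under 0.05 alone, without the 2-fold limit, the same 4 genes passed, against 34.1% of all genes higher and 36.8% lower. The groups did not overlap for *Rptn* and *Ivl* (higher) and *Lor* (lower), as for 28.9% of all genes higher and 31.8% lower. What differed from gene to gene was direction and size, from a 679-fold rise of *Rptn* to a fall of *Lor* to 42.6% of control. Scaling mattered here, since TMM factors were 1.198 to 1.315 in control and 0.6738 to 0.9098 in *Supt6*-KO mice. With library totals alone, the median over all genes on the log2 scale was -0.76 in place of -0.07. The calls over all genes then became 8.95% higher and 41.4% lower, and those among the 8 genes 2 higher (*Rptn* and *Ivl*) and 2 lower (*Lor* and *Flg2*). On the scale of TPM (transcripts-per-million values, a level per transcript length), whose total is fixed in each mouse, the median over all genes was -1.03, and limma called 2.27% of them higher and 51.0% lower. Of the 8 genes *Rptn* was then higher (7.55) and *Lor* (-2.86), *Flg2* (-2.81) and *Kprp* (-1.58) were lower, while *Hrnr* was at -0.21. Changes below are relative to the TMM scale, and ratios between genes of the same mouse, which need no scaling, follow them. In whole skin, fewer cells of a type and less RNA per cell cannot be told apart.

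**Figure D1:**
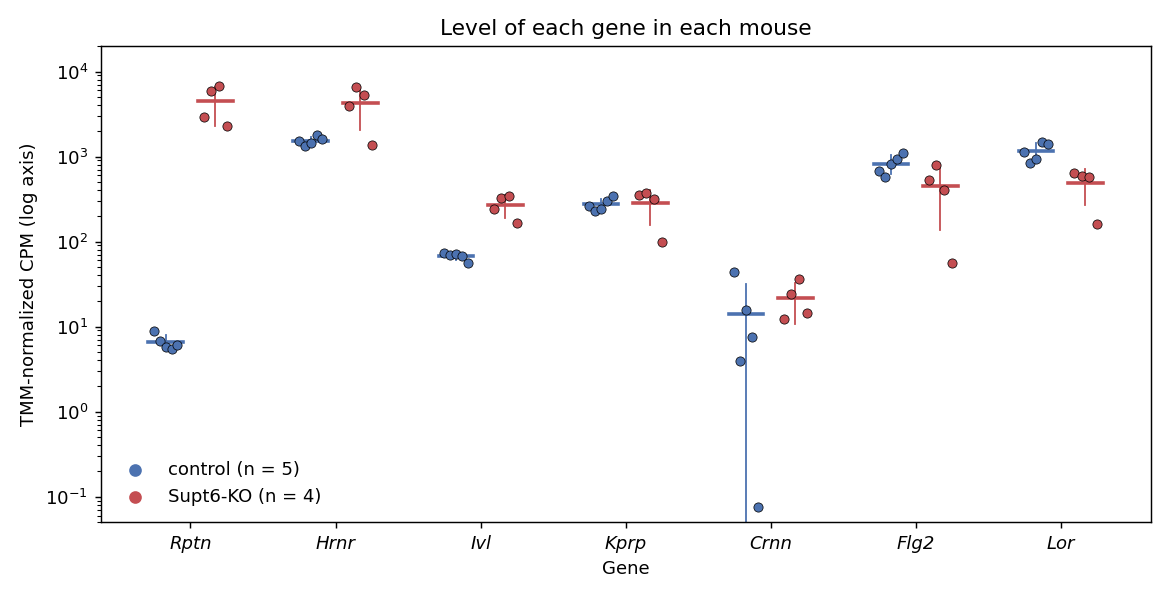
TMM-scaled CPM of the 7 genes detected in both groups, on a log axis, with a point for each mouse, a horizontal bar for the group mean and a vertical line for 1 SD (the line of *Crnn* in control mice runs off the axis because the SD exceeds the mean). *Rptn* and *Ivl* were above the control range in all 4 *Supt6*-KO mice, *Lor* was below it in all 4, and *Supt6*-KO mouse 4, the rightmost red point, was the lowest of its group for 6 of the 7 genes.

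The stretch of 250 bases before the start used for the RefSeq promoter window is shown for the 4 genes that were called, since they lie in 1 gene cluster and moved in different directions. The sequences are from RefSeq (GRCm38.p6), whose promoter windows cover 8 of the 9 genes, without one for *Kprp*. They are written 5′ to 3′ on the strand of the gene, with matches to 4 motifs in capitals: TATAAA for the TATA box, TGANTCA for AP-1, AACNGGTT for Grainyhead factors and a degenerate NF-κB motif, each searched on both strands, with no overlap between matches. The windows are chr3:93393449-93393698 (+) for *Rptn*, chr3:93319499-93319748 (+) for *Hrnr*, chr3:92573736-92573985 (-) for *Ivl* and chr3:92083143-92083392 (-) for *Lor*. The windows of *Rptn*, *Hrnr* and *Lor* end where the annotated gene begins, whereas the last 55 bases of that of *Ivl* lie inside the annotated gene, and distances are counted from the end of each window.
Rptn: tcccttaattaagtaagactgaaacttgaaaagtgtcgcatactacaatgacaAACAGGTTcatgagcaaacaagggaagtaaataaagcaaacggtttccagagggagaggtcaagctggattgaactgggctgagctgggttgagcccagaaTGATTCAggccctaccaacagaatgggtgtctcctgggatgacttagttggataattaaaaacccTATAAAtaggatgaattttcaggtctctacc
Hrnr: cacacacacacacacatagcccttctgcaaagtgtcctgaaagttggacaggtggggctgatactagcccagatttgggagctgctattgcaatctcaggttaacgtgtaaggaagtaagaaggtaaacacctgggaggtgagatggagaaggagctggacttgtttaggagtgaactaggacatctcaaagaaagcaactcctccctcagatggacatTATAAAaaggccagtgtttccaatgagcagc
Ivl: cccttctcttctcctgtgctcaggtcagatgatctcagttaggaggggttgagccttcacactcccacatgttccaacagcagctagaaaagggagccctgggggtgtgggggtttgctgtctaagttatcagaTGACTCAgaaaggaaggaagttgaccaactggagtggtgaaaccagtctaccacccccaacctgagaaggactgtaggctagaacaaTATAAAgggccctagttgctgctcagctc
Lor: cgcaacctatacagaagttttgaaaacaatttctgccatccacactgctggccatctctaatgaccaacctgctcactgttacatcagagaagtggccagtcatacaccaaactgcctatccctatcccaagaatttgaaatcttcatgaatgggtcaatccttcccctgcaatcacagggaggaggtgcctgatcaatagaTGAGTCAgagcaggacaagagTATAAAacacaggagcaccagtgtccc
The AP-1 letters were found in 6 of the 8 windows and in 6.75% of all 32851 RefSeq windows of the same length, and the TATA letters in 6 of the 8 and in 12.4% of all. Both were present in *Lor*, which fell, and in *Ivl* and *Rptn*, which rose, while the window of *Hrnr*, which also rose on the TMM scale, held the TATA letters alone. In *Lor* the AP-1 match began 48 bases before the start, in *Rptn* 96 and in *Ivl* 116. The Grainyhead letters (1.79% of all windows) matched in *Rptn* only among the 8, 197 bases before the start, and the NF-κB motif (1.41% of all windows) in none of the 8. These are matches of letters in these windows, not sites shown to be bound.

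Of the S100-fused filaggrin family, *Rptn* had the largest change. It encodes repetin, an envelope protein of the filaggrin family that is scarce in normal interfollicular epidermis, and lies at chr3:93393699-93399442 (+, 3 exons). *Rptn* was at 8.85, 6.82, 5.76, 5.41 and 6.01 CPM in control mice 1 to 5 and at 2928, 5826, 6789 and 2289 CPM in *Supt6*-KO mice 1 to 4. The groups were far apart, and the lowest *Supt6*-KO mouse was mouse 4. Control mice averaged 6.57 ± 1.38 CPM (SD, n = 5) and *Supt6*-KO mice 4458 ± 2187 CPM (SD, n = 4), which is 9.41 higher on the log2 scale (SE 0.43, edgeR adjusted p = 6.8e-08). This was the 14th highest log2 fold change of the 16426 genes tested, a position shared by or above only 0.0852% of them, and it was 9.62 without *Supt6*-KO mouse 4. Ordered by TPM, *Rptn* stood between place 10737 and place 11718 of all genes in the control mice and between place 157 and place 281 in the *Supt6*-KO mice.

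*Hrnr*, at chr3:93319749-93333572 (+, 3 exons), encodes hornerin, a long repeat protein that is joined to the envelope and is related to filaggrin. It was at 1524, 1338, 1435, 1801 and 1606 CPM in control mice 1 to 5 and at 3929, 6606, 5334 and 1354 CPM in *Supt6*-KO mice 1 to 4. Mice 1 to 3 were above the whole control range, whereas mouse 4 lay inside it, near the lowest control mouse. Control mice averaged 1541 ± 176 CPM (SD, n = 5) and *Supt6*-KO mice 4306 ± 2252 CPM (SD, n = 4), a log2 difference of 1.48 (SE 0.35, edgeR adjusted p = 0.0028). Without *Supt6*-KO mouse 4 it was 1.78. The size depended on scaling, with 0.71 (adjusted p = 0.0498) from library totals and 2.69 after a correction for transcript length. As TPM it did not rise, with 237.1 ± 50.2 in control (SD, n = 5) and 214.2 ± 77.0 in *Supt6*-KO mice (SD, n = 4), a log2 difference of -0.21 (limma adjusted p = 0.49) where the median over all genes was -1.03.

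*Flg2*, at chr3:93197273-93221377 (+, 6 exons), encodes filaggrin-2, which is processed like filaggrin and takes part in keeping the cells of the stratum corneum together. It was at 679, 578, 822, 938 and 1109.5 CPM in control mice 1 to 5 and at 531, 802, 405 and 55.6 CPM in *Supt6*-KO mice 1 to 4. The groups overlapped through *Supt6*-KO mouse 2, and mouse 4 was far below all others. The log2 fold change of -0.88 (SE 0.53) did not pass the test (adjusted p = 0.16 by edgeR), and it was -0.51 without mouse 4 and -1.34 without *Supt6*-KO mouse 2 (adjusted p = 0.054). It was below 0 in 18 of 19 alternatives, at -1.68 with library totals (adjusted p = 0.0115) and -2.81 as TPM (limma adjusted p = 0.000574), and at 0.17 after the length correction (adjusted p = 0.78).

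*Crnn*, at chr3:93144789-93149818 (+, 4 exons), encodes cornulin, a squamous epithelial protein that is abundant in the oesophagus. It was the most variable of the 7, at 43.8, 3.97, 15.8, 7.57 and 0.0764 CPM in control mice 1 to 5 and at 12.3, 24.2, 36.4 and 14.4 CPM in *Supt6*-KO mice 1 to 4. All *Supt6*-KO values fell within the control range, whose lowest value came from 3 estimated counts. The log2 fold change was 0.62 (SE 0.93, adjusted p = 0.56 by edgeR), and it was 1.67 without control mouse 1 (adjusted p = 0.101), 0.30 without control mouse 5 and 0.26 without *Supt6*-KO mouse 3. Of 4 other genes listed for oral and oesophageal epithelium, *Krt13* was just past 2-fold at low level (1.75 ± 0.347 CPM, n = 5, against 3.55 ± 1.86 CPM, n = 4, SD). *Krt76* had no count in any control mouse and was at 0.286 CPM on average in *Supt6*-KO mice. *Krt4* (0.58 on the log2 scale) did not pass. *Krt24* fell from 209 to 4.53 CPM. Its level in control skin was far above that of *Krt13*, *Krt4* and *Krt76*, so its fall is not read as a change of oral-type epithelium. The 2 higher calls became 1 with library totals and after the length correction, 0 as TPM, and 1 to 2 when a mouse was left out.

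Among the envelope precursors, *Ivl*, at chr3:92570899-92573790 (-, 2 exons), rose. Involucrin, its product, is an early scaffold of the envelope. *Ivl* was at 73.8, 69.1, 71.9, 68.0 and 56.7 CPM in control mice 1 to 5 and at 242.7, 325.2, 346.3 and 167.5 CPM in *Supt6*-KO mice 1 to 4. The groups were well apart and the control mice were tightly grouped. The mean of 270.4 ± 81.9 CPM in *Supt6*-KO mice (SD, n = 4) was 3.98-fold that of 67.9 ± 6.67 CPM in control mice (SD, n = 5), with a log2 fold change of 1.99 (SE 0.20, edgeR adjusted p = 5.3e-06). The rise was smaller as TPM, from 66.5 ± 5.29 in control (SD, n = 5) to 91.6 ± 6.92 in *Supt6*-KO mice (SD, n = 4), a log2 difference of 0.46 (limma adjusted p = 0.00255). Over the 19 alternative settings, TPM among them, the log2 fold change lay between 0.46 and 2.16 with the adjusted p under 0.05 in all 19.

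*Lor*, at chr3:92080271-92083142 (-, 2 exons), encodes loricrin and moved the other way. It was at 1122, 840.0, 928, 1487 and 1402 CPM in control mice 1 to 5 and at 642, 593, 572 and 162 CPM in *Supt6*-KO mice 1 to 4. All *Supt6*-KO mice were below the lowest control mouse, 3 of them close to each other and mouse 4 far lower. Control mice averaged 1156 ± 284 CPM (SD, n = 5) and *Supt6*-KO mice 492 ± 222 CPM (SD, n = 4), a log2 difference of -1.23 (SE 0.35, edgeR adjusted p = 0.0086). Without *Supt6*-KO mouse 4 it was -0.95 (adjusted p = 0.00157), which is short of 2-fold, and no gene of the 8 was then called lower. As TPM its log2 difference was -2.86.

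*Kprp*, at chr3:92823074-92827247 (-, 2 exons), encodes a keratinocyte proline-rich protein of the upper epidermis. It was at 259, 231, 242, 300.6 and 340.3 CPM in control mice 1 to 5 and at 352, 368, 317 and 98.3 CPM in *Supt6*-KO mice 1 to 4. Mice 1 to 3 were at or above the upper end of the control range and mouse 4 was below it. The log2 fold change was 0.05 (SE 0.31, adjusted p = 0.90 by edgeR), and library totals gave -0.71 (adjusted p = 0.0402). TPM gave -1.58 (limma adjusted p = 0.000365). Without *Supt6*-KO mouse 4 it was 0.33 (adjusted p = 0.0618), and with control mouse 5 left out as well it passed in the other direction, at 0.42 (adjusted p = 0.00909). *Lelp1*, a late cornified envelope-like proline-rich gene at chr3:92134994-92142754 (-, 2 exons), had 0 estimated counts in 8 mice and 10 in *Supt6*-KO mouse 4. A count of 0 allows up to 3 counts, or 0.101 CPM of the library total, for counting error only, and its adjusted p was 0.059.

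Levels were compared between genes per transcript length, as TPM. In every control mouse *Lor* held place 1 of the 8, *Hrnr* place 2 and *Ivl* place 5, with *Kprp* and *Flg2* between them and *Rptn* and *Crnn* after. In every *Supt6*-KO mouse *Rptn* held place 1, and *Hrnr*, *Lor* and *Ivl* held places 2 to 4. *Lor* took 64.6%, 62.1%, 61.0%, 68.3% and 66.5% of the TPM of the 8 genes in control mice 1 to 5, and 22.5%, 13.4%, 12.7% and 11.1% in *Supt6*-KO mice 1 to 4. *Rptn* took 0.0942% to 0.193% in control mice and 38.9%, 49.9%, 57.0% and 59.6% in *Supt6*-KO mice. The groups did not overlap for either gene, and *Supt6*-KO mouse 4 was close to mouse 3 in both. *Flg2* went from between 7.74% and 10.7% to between 0.755% and 3.68%, and *Ivl* from between 2.45% and 4.65% to between 6.68% and 10.5%. *Hrnr*, with 10.7% to 13.9% in control and 13.1% to 21.0% in *Supt6*-KO mice, overlapped.

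**Figure D2:**
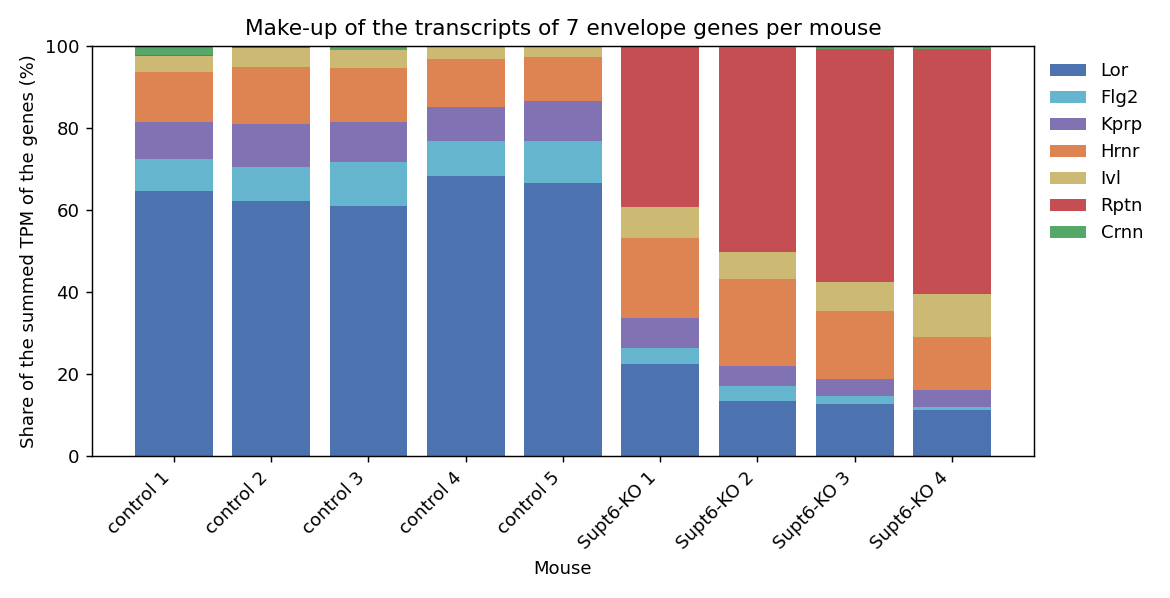
Share of each gene in the summed TPM of the genes, in percent, with 1 stacked bar per mouse (*Lelp1*, at most 0.0665%, is not drawn). *Lor* makes up 61.0% to 68.3% of the bar in the 5 control mice and *Rptn* 38.9% to 59.6% in the 4 *Supt6*-KO mice.

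The 8 genes together took 0.461%, 0.367%, 0.429%, 0.571% and 0.594% of all counts in control mice 1 to 5 and 0.674%, 0.98%, 0.974% and 0.377% in *Supt6*-KO mice 1 to 4. The share was above the control range in *Supt6*-KO mice 1 to 3 and at its lower end in mouse 4. Their summed TPM was 1286 to 2701 in control and 815 to 1451 in *Supt6*-KO mice, which overlapped. In the GENCODE annotation the transcripts of *Rptn* and *Hrnr* have 4146 and 11187 bases and that of *Lor* 1779.

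To compare the genes without any scaling, log2 ratios of the counts of 2 genes were taken within each mouse and their group means compared by a two-sided exact permutation test, whose smallest p with 5 against 4 mice is 0.0159. Of the 21 pairs without *Lelp1*, 15 passed at adjusted p under 0.05 over all 28 pairs, and in 14 of them the groups did not overlap. *Ivl* against *Lor* had ratios of 0.0658, 0.0823, 0.0775, 0.0457 and 0.0405 in control mice 1 to 5 and of 0.378, 0.548, 0.605 and 1.03 in *Supt6*-KO mice 1 to 4, a shift of 3.32 on the log2 scale (adjusted p = 0.0247, exact permutation test). *Lor* had more counts than *Ivl* in every mouse except *Supt6*-KO mouse 4. *Rptn* against *Lor* shifted by 10.66, *Hrnr* against *Lor* by 2.65 and *Rptn* against *Hrnr* by 8.01 in the *Supt6*-KO direction. *Lor* against *Kprp* went from 4.33, 3.63, 3.83, 4.95 and 4.12 to 1.82, 1.61, 1.81 and 1.65, a tight ratio in both groups that shifted by -1.27 with the same adjusted p. *Flg2* and *Lor*, on the other hand, had a log2 ratio of -0.49 ± 0.23 in control (SD, n = 5) and -0.47 ± 0.82 in *Supt6*-KO mice (SD, n = 4), a difference of 0.02 (p = 0.984, exact permutation test). These ratios take no account of transcript length, and after the length correction *Flg2* was at 0.17 and *Lor* at -1.58 on the log2 scale.

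**Figure D3:**
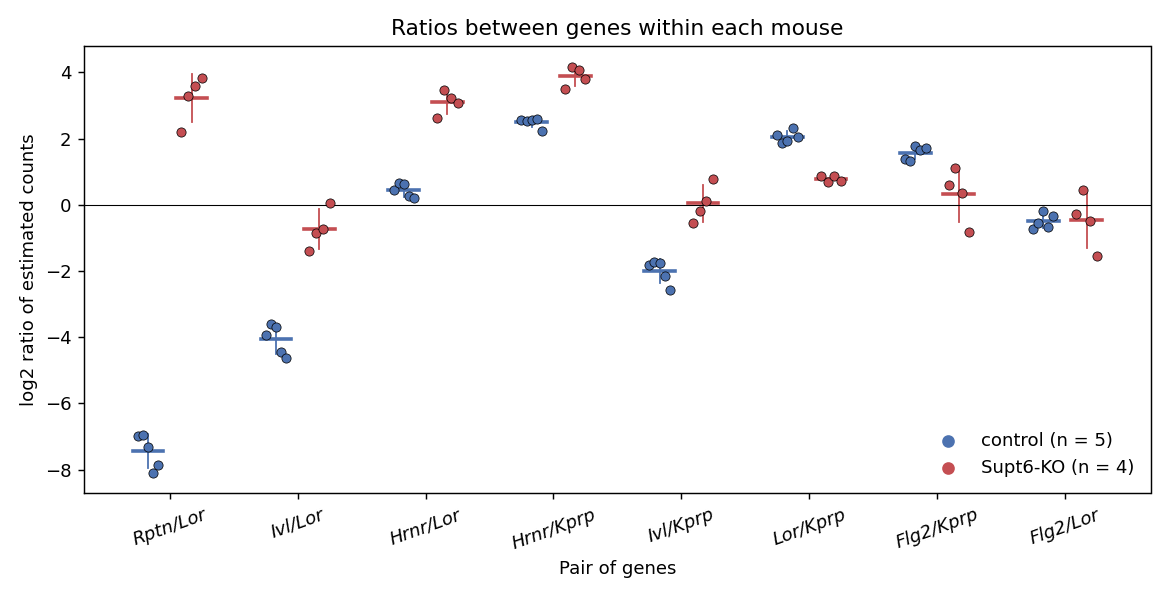
Log2 ratio of the estimated counts of 8 pairs of genes in each mouse, with the group mean (bar) and 1 SD (line), which does not depend on how libraries are scaled. The groups are apart for the first 7 pairs and overlap for *Flg2* against *Lor*, whose means differ by 0.02.

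Set against the suprabasal keratin *Krt10* in the same mouse, *Rptn* was up by 9.18, *Ivl* by 1.85 and *Hrnr* by 1.18 on the log2 scale, with no overlap between the groups in all 9 mice (adjusted p = 0.0282 for each, exact permutation test over 16 ratios to keratins). *Lor* shifted by -1.47 and *Flg2* by -1.46 with the same adjusted p. *Kprp* against *Krt10* differed by -0.21 (adjusted p = 0.371, exact permutation test). Against the basal keratin *Krt14*, which was high in *Supt6*-KO mouse 4, *Rptn* (8.75) and *Lor* (-1.91) passed, while *Hrnr* (0.74), *Ivl* (1.41) and *Flg2* (-1.89) did not. Without *Supt6*-KO mouse 4 the shifts against *Krt14* became -1.11 for *Lor*, -0.73 for *Flg2*, 1.55 for *Hrnr* and 1.95 for *Ivl*, and *Flg2* against *Krt10* became -0.95. *Lor* against *Kprp* (-1.25) and *Hrnr* against *Lor* (2.66) moved little, whereas *Flg2* against *Lor* became 0.38. Against *Krt10* the shifts were then 9.13 for *Rptn*, 1.73 for *Ivl*, 1.33 for *Hrnr* and -1.33 for *Lor*. With 1 mouse fewer the smallest p of the exact permutation test rises to 0.0357 (5 against 3) or 0.0286 (4 against 4), and no ratio to a keratin passed, which says nothing about the stability of the shifts.

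How the genes varied among mice of a group is a description over 9 mice of deviations from the group mean in log2 CPM. *Lor*, *Kprp*, *Flg2* and *Hrnr* deviated together, with a Pearson r of 0.98 for *Lor* and *Kprp*, 0.98 for *Flg2* and *Kprp*, 0.94 for *Flg2* and *Lor*, and 0.91 to 0.95 for *Hrnr* with each of them. *Supt6*-KO mouse 4 carried part of this, since the same values without it were 0.89, 0.82 and 0.60, and 0.39 to 0.58 for *Hrnr*. *Ivl* had r = 0.89 with *Rptn* and 0.87 with *Hrnr* (0.81 and 0.46 without mouse 4). *Rptn* and *Lor* had r = 0.52 with mouse 4 and -0.29 without it. Of 12604 genes with at least 1 CPM on average in each group, those most like *Lor* were *Rbbp6* (r = 0.994), *Cry2* (0.985) and *Pou6f1* (0.984). The genes most like *Rptn* were *Ptgds* (0.973), *Mmp12* (0.959) and *Azgp1* (0.946), and those most like *Ivl* were *Yipf2* (0.986), *Nampt* (0.978) and *Acot4* (0.976). For *Crnn* they were *Prr9*, the gene next to *Lor* (0.989), *Pinlyp* (0.969) and *Dusp2* (0.964). For *Hrnr* they were *Cnot6l* (0.988), *Ide* and *Nrd1* (0.985 each), for *Flg2* *Cobl* (0.989), *Pxylp1* and *Ccdc136* (0.987 each), and for *Kprp* *Rgs9bp* (0.989), *Slc6a19* (0.985) and *Ccdc136* (0.984). Without *Supt6*-KO mouse 4 the r of the same genes was 0.935 to 0.970 for *Lor*, 0.921 to 0.956 for *Rptn*, 0.934 to 0.956 for *Ivl*, 0.968 to 0.989 for *Crnn*, 0.875 to 0.911 for *Hrnr*, 0.887 to 0.932 for *Flg2* and 0.804 to 0.884 for *Kprp*.

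The complex that holds the genes reaches in this table from *S100a1* to *S100a10* and has 67 genes with a row. Of the 57 tested genes in it that are not envelope genes named above, 43 were higher in *Supt6*-KO skin and 1, *S100a3*, was lower, with a median log2 fold change of 2.38 beside -0.07 for all genes tested. These calls became 35 and 5 with library totals, 31 and 6 after the length correction and 23 and 6 as TPM. With all mice and TMM scaling *Lor* and *S100a3* were the 2 genes of the complex that were called lower, and without *Supt6*-KO mouse 4 *Lor* was not. Its neighbours are *Pglyrp3*, a peptidoglycan recognition protein gene, with 2.45 and *Prr9*, a proline-rich gene, with -0.77 (SE 0.96, adjusted p = 0.489). *Kprp* lies between *Lce1k* (2.10) and *Lce1l* (0.35, adjusted p = 0.547), at the edge of the *Lce1* row. *Ivl* lies between *Sprr4* (0.62, adjusted p = 0.419) and *Smcp* (1.14, adjusted p = 0.122), a sperm mitochondrial gene with less than 1 CPM in both groups. *Crnn*, *Flg2*, *Hrnr* and *Rptn* follow each other in this order with 0.62, -0.88, 1.48 and 9.41. Next to *Rptn* comes *Tchh* (-1.08, adjusted p = 0.32), which encodes trichohyalin of the hair follicle.

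**Figure D4:**
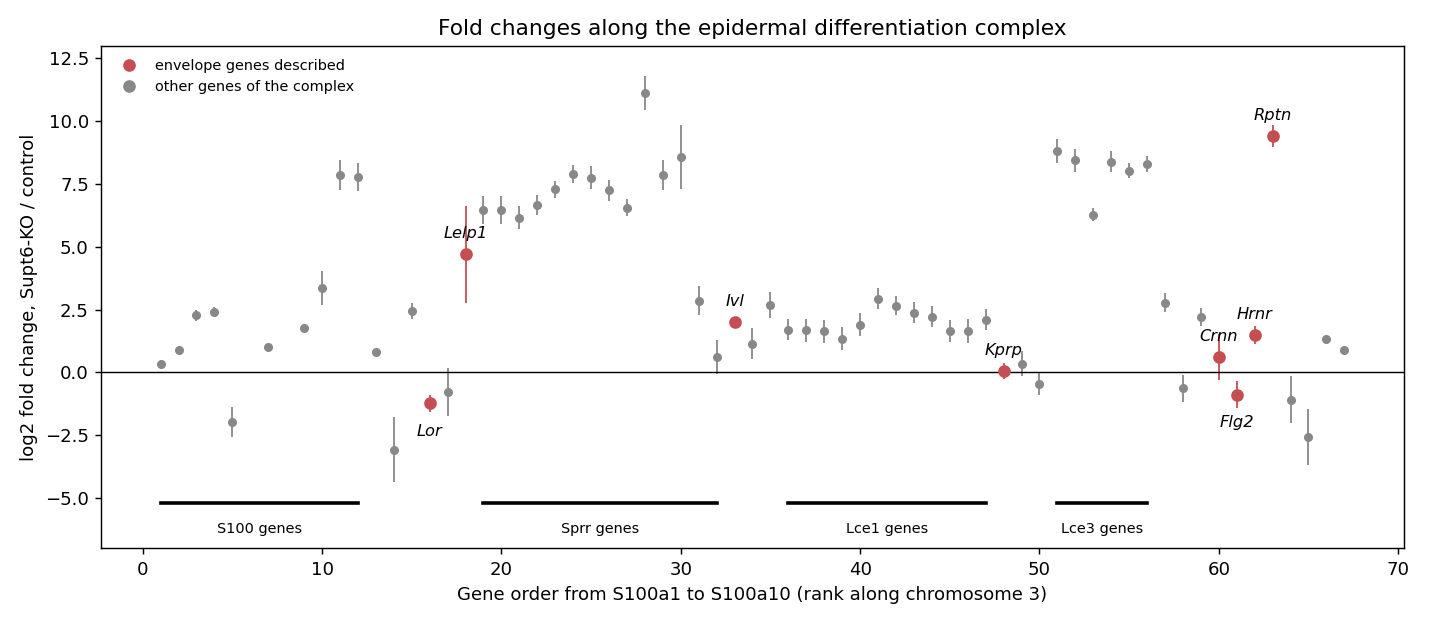
Log2 fold change with its SE (vertical line) of the 65 tested genes of the epidermal differentiation complex in their order along chromosome 3, on the TMM scale, with the 8 envelope genes in red. *Lor* at -1.23 and *Flg2* at -0.88 lie below 0 while 43 of the 57 other genes were called higher, and *Rptn* at 9.41 lies above the 6 *Lce3* genes, which range from 6.28 to 8.80.

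The partners of loricrin and involucrin in the envelope rose widely. Of 14 small proline-rich (*Sprr*) genes tested, 13 were higher and none lower, with a median log2 fold change of 6.96. *Sprr2a1* and *Sprr2a2*, which hold identical values and cannot be told apart here, though both are counted, rose from 43.5 ± 27.2 to 3845 ± 722 CPM, *Sprr1b* from 4.91 ± 2.25 to 1136 ± 771 CPM and *Sprr1a* from 77.4 ± 51.0 to 562.5 ± 508.3 CPM (SD, n = 5 and n = 4). *Sprr4* did not pass. Summed, the *Sprr* genes were at 287, 244, 207, 116 and 56.2 CPM in control mice 1 to 5 and at 10880, 10703, 11147 and 10903 CPM in *Supt6*-KO mice 1 to 4. Here *Supt6*-KO mouse 4 lay within its group. Of 21 late cornified envelope (*Lce*) genes, 19 were higher and none lower, with a median of 2.22, while *Lce1l* and *Lce1m* did not pass. The calls became 13 higher and 1 lower with library totals, 10 and 1 after the length correction and 7 and 2 as TPM. Their sum was at 1839, 2243, 2024, 1865 and 1519 CPM in control mice and at 8923, 9126, 6701 and 1553 CPM in *Supt6*-KO mice 1 to 4, with mouse 4 inside the control range. The most abundant of them by the mean of the group means were *Lce1a1* (log2 fold change 1.70), *Lce1a2* (1.63), *Lce1d* (1.90) and *Lce1b* (1.68), each higher, with overlapping groups. In control skin alone *Lce1m* was the most abundant, at 349.3 CPM against 226.3 CPM in *Supt6*-KO skin (log2 fold change -0.63, adjusted p = 0.31).

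Of 13 genes listed for cross-linking enzymes and the envelope scaffold, keratins and cystatins among them, 5 were higher and 3 lower. Their median log2 fold change was 0.19 (4 and 5 with library totals, 3 and 7 as TPM). Over all genes tested 20.9% were called higher and 24.9% lower, so that calls in both directions are not particular to this list. *Krt1*, the partner of keratin 10 in suprabasal filaments, rose from 833 ± 159 to 10424 ± 2428 CPM (SD, n = 5 and n = 4), while *Krt2*, a keratin of the upper layers, fell from 10602 ± 1470.1 to 129.9 ± 126.3 CPM. Among the other calls, *Csta1* (2.80) and *Cstb* (2.95), which encode cystatins, the cornifelin gene *Cnfn* (2.14) and the transglutaminase gene *Tgm5* (1.41) were higher, and *Krt77* (-5.65) and the envoplakin gene *Evpl* (-1.74) were lower. Short of 2-fold, the transglutaminase genes *Tgm1* (0.65, edgeR adjusted p = 0.0006) and *Tgm3* (-0.61, adjusted p = 0.0083) moved in opposite directions. The periplakin gene *Ppl* was also short of it (-0.97, edgeR adjusted p = 0.0027). *Krt10* and *Cdsn*, the corneodesmosin gene (0.10), did not pass.

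For filaggrin, whose own gene was not analysed here, 14 genes of processing and breakdown were followed. Of these, 6 were higher and 3 lower, with a median log2 fold change of 0.68 (5 and 4 with library totals, 1 and 7 as TPM). Of all genes tested, 20.9% were called higher and 24.9% lower by the same rule. *Asprv1*, a retroviral-like aspartic protease that cleaves profilaggrin, rose from 1102 ± 114 to 4339 ± 1702 CPM. *Klk7*, a kallikrein of the stratum corneum, rose from 449 ± 95.4 to 2229.5 ± 447 CPM, and *Blmh*, bleomycin hydrolase, which acts in the late breakdown of filaggrin, from 279 ± 26.1 to 1294 ± 103 CPM (SD, n = 5 and n = 4 throughout). *Spink5*, a kallikrein inhibitor gene, (0.27 on the log2 scale) did not pass. *Casp14* (3.51), *Klk5* (1.73) and *Prss8* (1.10) completed the 6, and *Padi3* (-5.27), *Pcsk6* (-1.92) and *Furin* (-1.13) were the 3 that fell past 2-fold. *Capn1*, a calpain gene, fell by less (-0.90, adjusted p = 0.00021, and -1.04 without *Supt6*-KO mouse 4, which makes 4). Among the genes of the filaggrin-like proteins themselves, *Rptn* rose, *Hrnr* rose on the TMM scale but not as TPM, and *Flg2* did not pass on the TMM scale.

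Of 19 transcription factor genes linked to terminal differentiation, 3 were higher and 5 lower, with a median log2 fold change of -0.52 (1 and 13 with library totals, 0 and 15 as TPM). The same rule called 20.9% of all genes tested higher and 24.9% lower, so that these counts are not a result about the factors. *Hopx* rose from 157.5 ± 29.5 to 533 ± 121 CPM and *Trp63*, the master factor of stratified epithelium, fell from 480.4 ± 68.1 to 207 ± 8.20 CPM (SD, n = 5 and n = 4). *Klf4*, the most abundant, was at -0.54 on the log2 scale, with no overlap between the groups but short of 2-fold, and *Cebpa* was at -0.49. The other calls were *Nfe2l2* (1.35) and *Prdm1* (1.14) among those higher and *Satb1* (-3.83), *Gata3* (-1.87), *Vdr* (-1.74) and *Smarca4* (-1.18) among those lower.

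**Figure D5:**
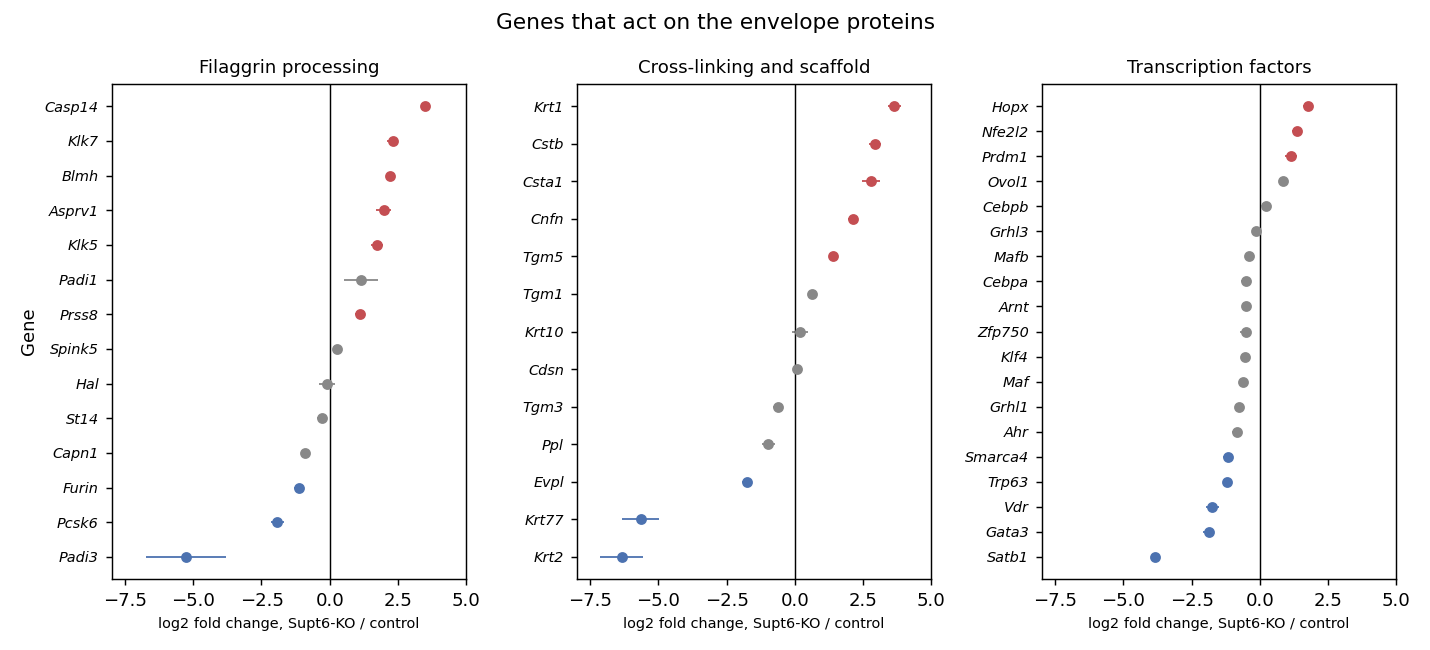
Log2 fold change with its SE (horizontal line) of the genes of filaggrin processing, of cross-linking and scaffold and of the transcription factors, with genes at adjusted p under 0.05 and at least 2-fold in red (higher) or blue (lower) and all others in grey. Each panel holds genes on both sides of 0, with 6 and 3, 5 and 3, and 3 and 5 genes called higher and lower. Of all genes tested, 20.9% were called higher and 24.9% lower.

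Markers of other cells and states in the skin also moved, and their part in the envelope results was not tested. The 4 stress keratins were all higher, though *Krt17* (1.04 on the log2 scale) did not pass without *Supt6*-KO mouse 4 (0.37, edgeR adjusted p = 0.13). The most abundant of the 4, here and below by the mean of the group means, was *Krt16*. Their sum was at 564, 389, 345, 345 and 274 CPM in control mice 1 to 5 and at 5513, 2949, 5377 and 22838 CPM in *Supt6*-KO mice 1 to 4. The *Supt6*-KO mouse with the least *Lor*, *Flg2*, *Hrnr*, *Kprp*, *Rptn* and *Ivl* thus had the most stress keratin. Of 7 basal keratinocyte genes, 4 were lower and none higher, and without *Supt6*-KO mouse 4 *Krt5* made 5 (-0.86 with it, -1.10 without). *Krt15* fell from 2303 to 367 CPM and *Col17a1* from 954 to 175 CPM. The sum of the 7, with *Krt14* the most abundant, was 11232 to 12849 CPM in control mice and 8212, 5593, 6824 and 13949 CPM in *Supt6*-KO mice 1 to 4. All 11 hair follicle genes were lower, with *Krt71* the most abundant. Their sum ranged from 2.72 to 2045 CPM in control mice, with a median of 380.2, and from 1.90 to 4.02 CPM in *Supt6*-KO mice, so that control mouse 5, the lowest, lay within the *Supt6*-KO range. *Tchh* and *Tchhl1*, the family members of the follicle, did not pass (*Tchhl1* at -2.56, adjusted p = 0.056), while 1 of them was called lower with library totals and after the length correction.

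Of 8 neutrophil genes, *Elane* had too few counts to be tested. Of the 7 others, 6 were higher and 1, *Mpo*, was lower (5 and 1 with library totals, 4 and 0 as TPM). *Mpo* was near the floor, at 0.354 CPM on average in control and 0.0104 CPM in *Supt6*-KO mice. The most abundant of the neutrophil genes was *S100a9*, which keratinocytes also make. Their sum was 14.1 to 42.8 CPM in control mice and 4572, 5170, 6449 and 2516 CPM in *Supt6*-KO mice 1 to 4, while *Retnlg* reached only 20.6 CPM and *Cxcr2* 13.3 CPM on average. Of 5 macrophage genes, with *Mrc1* the most abundant, 2 were higher and 1 lower (without *Supt6*-KO mouse 4 *Cd68* fell short of 2-fold at 0.78). The macrophage calls became 1 and 1 with library totals and after the length correction, and 0 and 2 as TPM. Of 5 T cell genes, with *Cd3g* the most abundant, 1 was higher and 2 lower. The T cell calls became 1 and 3 with library totals and after the length correction, and 0 and 3 as TPM. All 6 sebaceous gland genes fell, with *Scd1* the most abundant. Their sum was 6130 to 7389 CPM in control mice and 789.9 to 1412 CPM in *Supt6*-KO mice. *Elovl3* was short of 2-fold at -0.89 without *Supt6*-KO mouse 4. Of 6 skeletal muscle genes, with *Acta1* the most abundant, 5 were lower. Of 6 fibroblast genes 2 were lower, *Col1a2* and *Col1a1*, joined by *Pdgfra* without *Supt6*-KO mouse 4 (-0.96 with it, -1.12 without). With library totals, 5 of the 6 fibroblast genes and all 6 muscle genes were lower.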

How the data were processed

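Bulk RNA was analysed from 5 control and 4 *Supt6*-KO mice, grouped by the sample labels. The authors mapped reads to mm10 with Bowtie2 2.3.4.3 and estimated counts per gene with RSEM 1.3.1, which they deposited for all mice without scaling between samples. For 6 of the 9 mice the deposited table also holds TPM from RSEM. The submitters' processing notes further name HISAT and DESeq2 1.4.5, and the annotation release is not given in the sources used here. Of the 17943 gene identifiers, 17850 matched a RefSeq gene of GRCm38.p6.

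Estimated counts (9% not whole) were rounded and tested with edgeR 4.0.16 in R 4.3.3 (quasi-likelihood test, TMM factors, no covariates, Benjamini-Hochberg adjustment) over 16426 genes with at least 10 counts in sum. Calls needed adjusted p under 0.05, and 2-fold for counts over lists. A standard error is the log2 fold change over the square root of F. TPM of all 9 mice was computed from the counts with the transcript lengths that the deposited TPM implies, and differed from deposited values by 2.79% at most for the genes described. Ratios used 1 added count, and likeness used log2 of CPM plus 0.5. Python 3.11.15, pandas 2.3.3, numpy 2.4.6, scipy 1.17.1 and matplotlib 3.10.9 were used.

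The alternatives were library totals, upper-quartile factors, DESeq2 1.42.0, other filters and pseudocounts, a length correction, factors without the 50 most abundant genes, an unadjusted p, a replicate block, each mouse left out and, added after seeing the data, *Supt6*-KO mouse 4 and control mouse 5 left out together, and log2 of TPM plus 0.5 tested with limma 3.58.1. The code was tested on simulated data. Depth was 29627334 to 30967109 counts per mouse, and limits from a count of 0 cover counting error only.

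The genes described and the lists were chosen with earlier results of these data known. Named are all genes described, *Supt6*, *Krt10*, *Krt14*, the 4 most abundant tested genes of a list, the neighbours in the complex and the 3 genes most like each. The other called genes of the cross-linking, filaggrin processing and transcription factor lists, *Tgm1*, *Tgm3*, *Ppl*, *Lce1l*, *Lce1m*, *Mpo*, *S100a3*, *Elane*, *Krt17*, *Krt5*, *Capn1*, *Pdgfra*, *Cd68* and *Elovl3* were named after their values were seen.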

Additional observations from a re-analysis of the deposited data

Results flagged for a closer look

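In 10 of 63 groups of mice examined, each the values of 1 gene or summed list in the control or *Supt6*-KO mice, 1 mouse lay far from the rest by Dixon's criterion, where chance gives about 1 in 20 groups, or 3.2 here. The groups share mice and genes and are not independent.

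*Supt6*-KO mouse 4 accounts for 6 of the 10. Its *Lor* level was 162.3 CPM, where the median of its group was 582.7 CPM. *Krt10* was 7774.7 CPM there against a median of 18892.5 CPM, and the 10 counts of *Lelp1* made 0.359 CPM where the other 3 mice had 0. The sum of *Ivl*, *Lor*, *Lelp1* and *Kprp* was 428.5 CPM in this mouse (median 1236.2 CPM), and that of the epidermal differentiation complex without the genes described was 21040.4 CPM (median 33461.1 CPM). Its stress keratins summed to 22838.0 CPM (median 5445.3 CPM).

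The other 4 were spread over 3 mice. *Tchh* and *Tchhl1* summed to 404.4 CPM in control mouse 1 (median 90.6 CPM). In control mouse 5 the filaggrin processing genes summed to 2972.0 CPM (median 3514.0 CPM) and the macrophage genes to 166.6 CPM (median 93.5 CPM). In *Supt6*-KO mouse 1 the transcription factor genes summed to 2739.2 CPM (median 2493.4 CPM).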

How the results depend on the processing

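*Rptn*, *Ivl*, *Lor* and *Supt6* kept their direction and an adjusted p under 0.05 in each of 19 alternatives. The size for *Supt6* moved, to -0.69 after the length correction, short of 2-fold, -2.26 with library totals and -2.79 as TPM. *Hrnr* kept both in 18, with -0.21 as TPM. TPM also turned *Kprp* (-1.58), *Krt10* (-1.39) and *Krt14* (-0.95), and called 1 of the genes described higher and 3 lower, 372 of all genes higher and 8374 lower, 30 of the genes of the lists higher and 72 lower (61 and 44 with TMM), and 23 other genes of the complex higher and 6 lower. Its total is fixed over all transcripts of a mouse, and its median over all genes was -1.03. The sign turned for *Flg2* after the length correction (0.17), for *Crnn* (-0.12) and *Krt10* (-0.55) with library totals, and for *Kprp* with library totals (-0.71), upper-quartile factors (-0.03) and at least 10 counts in every mouse (0.00), while leaving out 1 mouse gave *Kprp* -0.12 to 0.33. Genes described that were called lower numbered 0 without *Supt6*-KO mouse 4, also with control mouse 5 left out as well, 1 without any other mouse, and 2 with library totals. With library totals all tested genes numbered 1470 higher and 6802 lower, against 3427 and 4088. Other genes of the complex called lower numbered 2 with DESeq2, with upper-quartile factors, with the replicate block and without both mice, 5 with library totals, 6 after the length correction and 1 to 3 when a mouse was left out, against 1.

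The replicate block (mice 1 to 4 of each group matched by number) changed no call of a gene described. The mice share only a number, with deviations of the same number correlating at 0.133 on average (0.0133 to 0.234, 4 pairs) and those of other numbers at -0.0281. With the replicate block 0 of the 28 ratios and 0 of the 16 ratios to keratins passed, since its smallest p is 0.125. Leaving out 1 mouse gave 0 to 20 ratios between the genes, against 19, with 0 whenever a *Supt6*-KO mouse was left out, and 0 ratios to keratins, against 9. The smallest p of the smaller design is 0.0357 or 0.0286 before adjustment, so these counts say nothing about stability, and without *Supt6*-KO mouse 4 *Rptn* to *Lor* was 10.46 and *Ivl* to *Lor* 3.06. Of the 19 and 9 ratios, 4 and 2 involve *Lelp1*, at 0 counts in 8 mice, and rest on the added count and the other gene. Ratios that had not passed also turned sign. With 5 counts added, *Hrnr* to *Lelp1* became 0.21 and *Crnn* to *Ivl* -0.04. With the replicate block, *Hrnr* to *Crnn* became 0.56, *Crnn* to *Ivl* -1.15 and *Crnn* to *Lelp1* -0.79. Leaving out 1 mouse gave *Flg2* to *Lor* -0.28 to 0.38, *Hrnr* to *Crnn* -1.64 to 0.56, *Hrnr* to *Lelp1* -0.77 to 1.01, *Crnn* to *Ivl* -1.15 to 0.94, *Crnn* to *Lelp1* -0.79 to 1.51 and *Kprp* to *Krt14* -1.04 to 0.14. *Lelp1*, at 10 counts in 1 mouse, is limited by depth.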

Other observations

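Among control mice *Crnn* followed the hair follicle genes in order. *Crnn* was at 43.8, 3.97, 15.8, 7.57 and 0.0764 CPM in control mice 1 to 5, and the hair follicle genes summed to 2044.9, 172.0, 712.2, 380.2 and 2.72 CPM in the same mice. *Tchh* and *Tchhl1* summed to 404.4, 24.1, 100.9, 90.6 and 3.13 CPM, so that mouse 1 was highest, mouse 3 next and mouse 5 lowest in all of them. In *Supt6*-KO mice the hair follicle genes stayed at 1.90 to 4.02 CPM in sum, while *Crnn* was at 12.3 to 36.4 CPM and *Tchh* with *Tchhl1* at 17.3, 48.6, 64.8 and 77.1 CPM, above the lowest control mouse in every case. A correlation over the 5 mice of 1 group was not tested.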
